A study of Homo sapiens with 5 samples.

Results

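The comparison sets MonoMac6 cells cultured with leukotriene B4 against the same cells cultured with leukotriene C4, read on 2 of the 5 arrays of the series. The arrays were chosen by their titles, and each condition has 1 array. MonoMac6 is a human monocytic cell line, long established in culture. Both leukotrienes were dissolved in DMSO, added at 100 nM and left on the cells for 12 h before total RNA was taken. An array of unstimulated cells served to show which leukotriene array had moved, and the arrays of lipoxin A4 and lipoxin B4, at the same dose and time, gave further values for the same genes. No source used here states whether DMSO was added to the unstimulated cells. All 5 arrays come from this 1 line, which is a leukaemia-derived model of a monocyte and not a primary cell.

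Leukotrienes are lipid signals that 5-lipoxygenase and its partner protein make from arachidonic acid in leukocytes. A hydrolase turns the shared intermediate into leukotriene B4, a dihydroxy acid that draws in and activates neutrophils and monocytes through the receptors LTB4R and LTB4R2. A synthase joins the same intermediate to glutathione through a thioether, which gives leukotriene C4. Peptidases at the cell surface trim that conjugate to leukotrienes D4 and E4, and the cysteinyl leukotrienes act through CYSLTR1 and CYSLTR2, known for bronchoconstriction and vascular leak. The compared structures thus differ in whether the acid carries a second hydroxyl group or a glutathione conjugate, and the comparison asks whether MonoMac6 mRNA levels differ between them.

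With 1 array for each compound there is no error, no interval and no test, and all values below are differences between 2 arrays. Signals are in array units. Values under a floor of 48.7, which is the median over probe sets of their mean signal, were set to the floor, and a fold against the floor is a lower bound. Each gene was read from its brightest probe set unless others are named. Differences are log2 signals with leukotriene C4 minus leukotriene B4, so a positive value is higher with leukotriene C4.

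Cells cultured with leukotriene C4 had more mRNA for autotaxin, for the monocyte chemoattractant CCL2 and for the lysosomal protease cathepsin Z than cells cultured with leukotriene B4. Among brighter genes few others were 2-fold apart. Of 15374 measured genes, 241 were at least 2-fold higher with leukotriene C4 (1.57%) and 136 at least 2-fold higher with leukotriene B4 (0.885%), together 2.45%. Of the 7127 genes with a mean signal of 500 or more, 4 were higher with leukotriene C4 (0.0561%) and 2 with leukotriene B4 (0.0281%), together 0.0842%. The mean is over all 5 arrays, so a gene can reach 500 through the array where it is high. ENPP2, the autotaxin gene, did so, with 1831 for leukotriene C4 and 395 to 460 on the other 4 arrays. It therefore enters the bright counts here and below through the leukotriene C4 array. For scale, 203 genes (1.32%) were 2-fold apart between the lipoxin A4 and lipoxin B4 arrays, 0.826% of all genes higher with lipoxin A4 and 0.494% with lipoxin B4; whether that count differs from 377 was not tested.

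**Figure D1:**
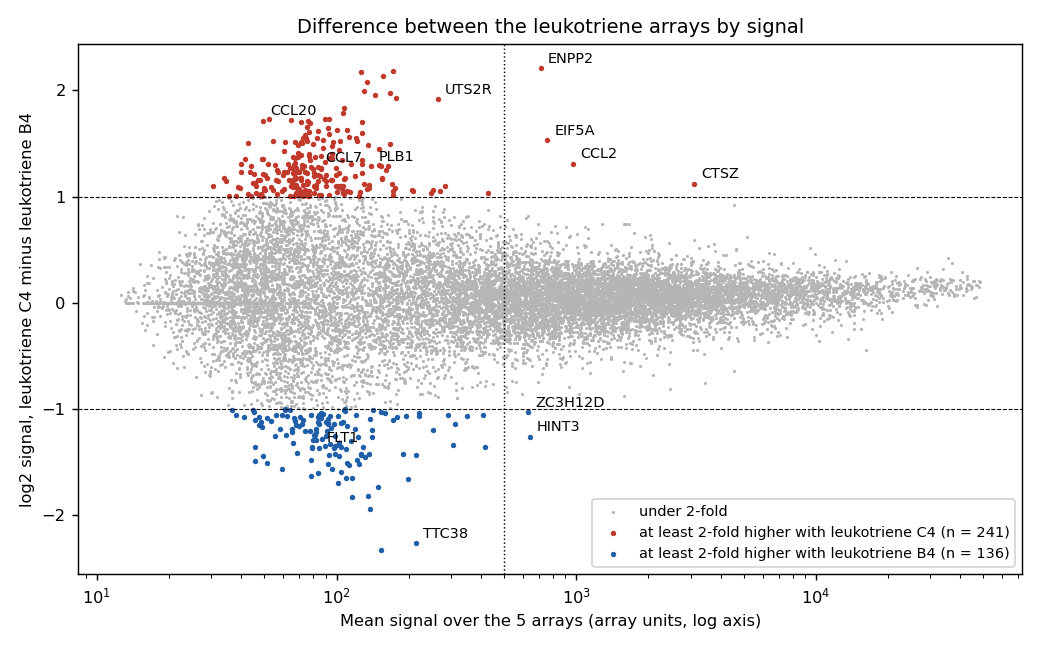
Each point is 1 of the 15374 measured genes, with its mean signal over the 5 arrays on a log axis and its log2 difference, leukotriene C4 minus leukotriene B4, on the vertical axis; dashed lines mark 2-fold and the dotted line a signal of 500. The 241 and 136 coloured genes lie almost all left of the dotted line, and ENPP2, EIF5A, CCL2 and CTSZ stand above it on the right, with ZC3H12D and HINT3 below.

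Most of the counted genes were dim. The SD of the difference over genes was 0.46 for mean signals under 100, 0.56 between 100 and 200, 0.33 between 200 and 500, 0.22 between 500 and 2000 and 0.15 above 2000. The counted genes numbered 248, 104, 19, 5 and 1 in the same ranges. Of the 241 genes higher with leukotriene C4, 141 lay under the floor on the leukotriene B4 array. Of the 136 higher with leukotriene B4, 73 lay under it on the leukotriene C4 array. A difference among dim genes therefore says little on its own, and the brighter genes and those with a second probe set are given more weight below. A second probe set reads the same RNA on the same array. It is a check on the probes and not a repeat of the culture or the array.

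Among genes above the floor on both leukotriene arrays, ENPP2 had the largest difference of those higher with leukotriene C4. Its product, autotaxin, is a secreted lysophospholipase D that releases lysophosphatidic acid, and the gene lies on chromosome 8. Its signal was 395 with leukotriene B4 and 1831 with leukotriene C4, against 424 in unstimulated cells, 449 with lipoxin A4 and 460 with lipoxin B4. The leukotriene C4 array alone was high, and the other 4 lay close together. The difference was 2.21, or 4.63-fold, which is 10.1 times the SD among genes of mean signal 500 to 2000. ENPP2 falls in that range only through its leukotriene C4 value. On the other 4 arrays its signal lay in the range from 200 to 500, where the SD over genes was larger, at 0.33 against 0.22. A second probe set gave 206 with leukotriene B4 and 826 with leukotriene C4, a difference of 2.01, and between 233 and 283 on the other 3 arrays.

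Of 10 measured genes of lysophosphatidic acid signalling, ENPP2 alone was 2-fold apart on its brightest probe set, and the list median was 0.01. The receptors LPAR1 and LPAR3 differed by -0.05 and -0.25, although another probe set gave 0.74 for LPAR1 and 0.67 for LPAR3. The lipid phosphatase PLPP1, which degrades the product, differed by -0.24, with -1.24 on another probe set. AGPAT1 and AGPAT2, acyltransferases that consume it, differed by 0.13 and 0.17.

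CCL2, the chemokine that recruits monocytes through CCR2, was the second secreted factor with this pattern. Its signal was 727 with leukotriene B4 and 1805 with leukotriene C4, while the unstimulated, lipoxin A4 and lipoxin B4 arrays had 769, 777 and 763. Again the leukotriene C4 array alone stood out, by 1.31 over leukotriene B4 (2.48-fold). CCL2 has 1 probe set here, of a kind whose name marks possible matches to related transcripts, so no second probe set could be set beside it.

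CCL20 and CCL7 were the other CC chemokines 2-fold apart. CCL20, the ligand of CCR6 that draws in dendritic and T cells, had a signal of 160 with leukotriene C4 and lay under the floor on the other 4 arrays, at least 3.28-fold higher than with leukotriene B4. With a higher floor of 126, set from markers of other cell types, the CCL20 difference was 0.35, under 2-fold. CCL7, a relative of CCL2, had 118 with leukotriene C4 and was under the floor with leukotriene B4, at least 2.43-fold apart. CCL7 did not separate the leukotriene C4 array from the rest, since lipoxin B4 had 110 and unstimulated cells 85.3. CCL7 is the next protein-coding gene after CCL2 on chromosome 17 in the RefSeq annotation, followed by CCL11, CCL8, CCL13 and CCL1. Of these only CCL8 was also measured, and it lay at or next to the floor on both leukotriene arrays.

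Of the 10 measured CC chemokines, 3 were thus higher with leukotriene C4 and 0 with leukotriene B4, beside 1.57% and 0.885% of all genes. Their median was 0.12 against 0.04 over all measured genes. The count is a description only, since the list was chosen with earlier results of these data known. The CCL20 and CCL7 values are bounds. With the floor of 126, CCL20 fell under 2-fold and CCL7 lay under that floor on every array. CCL5 had 2592 with leukotriene B4 and 3028 with leukotriene C4. CCL23 had 741 and 719. None of 11 CXC chemokines was 2-fold apart, with a median of 0.00. CXCL8, the main neutrophil chemokine, had 896 and 1123, a difference of 0.33, and its unstimulated value was 896. Of 8 measured chemokine receptors none was 2-fold apart and the median was -0.03: CCR2, the receptor of CCL2 and CCL7, had 3054 and 2968, and CCR1 had 1773 and 1955.

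The upstream sequences of CCL20 and CCL7 are shown because these chemokines were higher with leukotriene C4 and the RefSeq promoter table (GRCh38.p14) holds them. Each runs over the 250 bases before the annotated start on the plus strand, at chr2:227813592-227813841 for CCL20 and chr17:34269971-34270220 for CCL7. Capitals mark the NF-kappaB core, GGGA and CC with any 4 bases between them, on either strand.
CCL20: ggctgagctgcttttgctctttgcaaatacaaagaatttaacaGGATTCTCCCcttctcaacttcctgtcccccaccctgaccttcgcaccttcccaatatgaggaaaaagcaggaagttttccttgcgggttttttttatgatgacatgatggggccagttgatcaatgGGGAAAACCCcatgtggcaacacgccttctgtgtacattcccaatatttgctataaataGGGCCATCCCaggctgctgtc
CCL7: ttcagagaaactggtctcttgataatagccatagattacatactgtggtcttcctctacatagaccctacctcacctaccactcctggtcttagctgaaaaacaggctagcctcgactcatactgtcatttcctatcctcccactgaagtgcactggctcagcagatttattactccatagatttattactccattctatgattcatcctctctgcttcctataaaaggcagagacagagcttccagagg
CCL20 held 3 matches to this core, and CCL7 held 0. At least 3 matches were found in 1.11% of 12209 promoters of measured genes, and at least 1 in 26.6% of them. Among genes higher with leukotriene C4 the core was found in 42 of 166 promoters (25.3%), and among genes higher with leukotriene B4 in 30 of 92 (32.6%). The AP-1 motif TGACTCA was in 5 of 166 and 1 of 92 promoters, against 3.01% of all. The cyclic AMP response element TGACGTCA was in 3 and 1, against 2.61%. The antioxidant response element core TGACNNNGC was in 18 and 10 (10.8% and 10.9%), against 12.1%. The NFAT core GGAAA, which overlaps the middle NF-kappaB match of CCL20, was in 52.4% and 48.9%, against 54.0%. All motifs were searched on both strands, and a match is only a run of letters.

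**Figure D2:**
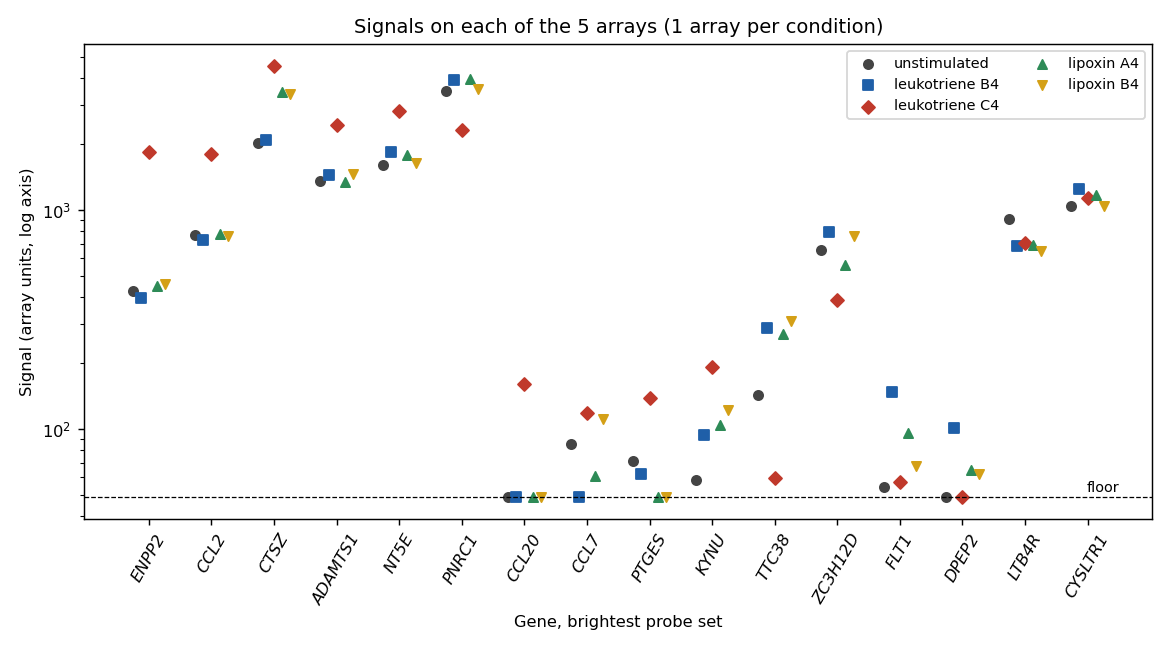
Signals of 16 genes on each of the 5 arrays, brightest probe set, on a log axis, with 1 symbol per array and the floor of 48.7 as a dashed line. The leukotriene C4 symbol lies apart from the other 4 for ENPP2, CCL2, ADAMTS1, NT5E and CCL20, and below them for PNRC1, TTC38 and ZC3H12D, while both leukotriene symbols lie close together for the receptors LTB4R and CYSLTR1.

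Cathepsin Z, a lysosomal carboxypeptidase encoded by CTSZ, had a signal of 2093 with leukotriene B4 and 4562 with leukotriene C4, a difference of 1.12. Unstimulated cells had 2010, and lipoxins A4 and B4 had 3442 and 3392. The leukotriene B4 and unstimulated arrays were thus the low ones for this gene, and leukotriene C4 the highest of 3 higher arrays. Its other probe set, much dimmer, had 62.6 and 106, a difference of 0.76. The mean of both probe sets was 0.94, under 2-fold. CTSZ was the only member of the 19 measured phagocyte oxidase, granule and protease genes that was 2-fold apart. Cathepsins B, D, L and S differed by 0.11, 0.36, 0.13 and -0.11, and neutrophil elastase (ELANE) by 0.14. The list median of 0.11 turned to -0.01 after quantile normalization.

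EIF5A, the translation factor that carries hypusine, had the leukotrienes on opposite sides of unstimulated cells. Its brightest probe set had 320 with leukotriene B4, 511 in unstimulated cells, 925 with leukotriene C4, 834 with lipoxin A4 and 1186 with lipoxin B4. The difference was 1.53, with leukotriene B4 at -0.67 and leukotriene C4 at 0.86 from unstimulated cells. The other probe sets of EIF5A gave 1.01 and 0.51. On the last of these, leukotriene B4 lay at -0.52 and leukotriene C4 at -0.01 from unstimulated cells. All of its probe sets have names that mark possible matches to related transcripts, and EIF5A has close copies in the genome, so its values are uncertain.

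Of the bright genes lower with leukotriene C4, ZC3H12D, an RNA-binding regulator of inflammatory transcripts, had 788 with leukotriene B4 and 386 with leukotriene C4. The other arrays lay between 561 and 763, so the leukotriene C4 array was the low one, and the difference was -1.03. As for CCL2, its only probe set has a name that marks possible matches to related transcripts. HINT3, a nucleotide hydrolase, falls outside the rule for named genes and was picked out because it is the other bright gene. Its brightest probe set differed by -1.26, but the others gave 0.07 and 0.64.

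A lower threshold shows more of the bright genes, where scatter was smallest. At 1.5-fold, 42 genes of mean signal 500 or more were higher with leukotriene C4 (0.589%) and 26 with leukotriene B4 (0.365%), together 0.954%. Other probe sets backed few of them at 1.5-fold: 5 of the 24 higher with leukotriene C4 that had another, with 7 holding a probe set of opposite sign. For those higher with leukotriene B4 the counts were 4 of 19, with 14 holding one of opposite sign. Like ENPP2, the genes FDX2, SPOUT1, LINC00963 and P2RX5 reach a mean of 500 only through the leukotriene C4 array. DDX60L, LOC100190986 and SLC10A7 reach it only through the leukotriene B4 array.

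The arrays were then searched for bright genes in which 1 array lay at least 0.5 (log2) beyond all of the other 4; this search and the genes in the next 3 paragraphs were chosen after the values had been seen. The leukotriene C4 array lay above all others for 8 such genes and below them for 6. The leukotriene B4 array lay above for 1 and below for 3. The corresponding counts were 13 and 6 for the unstimulated array, 0 and 2 for lipoxin A4 and 4 and 4 for lipoxin B4. By this measure the leukotriene C4 array stood apart more often than the leukotriene B4 array, but the unstimulated array did so more often still. Each count is out of 7127 bright genes, and whether the arrays differ in this was not tested.

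After ENPP2 and CCL2, the genes for which leukotriene C4 stood above the rest were ADAMTS1, NT5E, ACADVL, RHEX, TRIB1 and USP19. ADAMTS1, a secreted protease that cleaves proteoglycans, had 2430 with leukotriene C4 and between 1336 and 1463 on the other 4 arrays, with 0.75 over leukotriene B4 and 0.46 on its other probe set. NT5E, the ecto-nucleotidase CD73 that turns AMP into adenosine, had 2829 against 1601 to 1842, with 0.62 over leukotriene B4 and 0.52 and 0.22 on its other probe sets. ACADVL, a dehydrogenase of long-chain fatty acid oxidation, had 3296 against 2207 to 2244 on its only probe set. For RHEX and TRIB1 the other probe set had the opposite sign (-0.50 and -0.23), and for USP19 it gave 0.04.

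Below the rest with leukotriene C4 were ANKRD12, HLA-F-AS1, PNRC1, ZC3H12D, PRKAA1 and ELP2. PNRC1, a nuclear receptor coactivator, had 2323 with leukotriene C4 and between 3503 and 3968 on the other arrays, a difference from leukotriene B4 of -0.75. ANKRD12 had 508 against 918 to 1310, and its other probe sets gave -0.13, -0.16 and -0.48. PRKAA1, a catalytic subunit of the AMP-activated kinase, had 368 against 529 to 706, but 1 of its other probe sets gave 0.51. The leukotriene B4 array stood apart for ZNF451 (1205 against 746 to 844), CARM1, an arginine methyltransferase (975 against 1424 to 1592), EIF5A and SOX12. The other probe set of SOX12 had the opposite sign (-0.61 beside 0.63), and those of ELP2 gave -0.83, -0.32, 0.01 and 0.38.

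Among genes of any signal that had several measured probe sets, second probe sets backed a minority of the counts. Of the 241 genes higher with leukotriene C4, 87 had another measured probe set. For 10 of them another was also at least 2-fold higher, and for 26 another had the opposite sign. Of the 136 genes higher with leukotriene B4, 48 had another, which was 2-fold higher for 3 and of opposite sign for 23.

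Besides ENPP2 and EIF5A, the genes backed in this way and higher with leukotriene C4 were CEACAM3, SPDEF, IQSEC2, HLA-DOA, DPF1, CHST5, ARMC9 and STAB1. STAB1 encodes stabilin-1, a scavenger receptor of macrophages. It had 98.2 with leukotriene C4 and was under the floor with leukotriene B4, at least 2.02-fold apart. The difference fell just under 2-fold with quantile normalization (0.98), loess (0.96) and the deposited values (0.97), and was 0.80 as a mean of probe sets. Its second probe set had 166 with leukotriene C4 and was under the floor with leukotriene B4, and lipoxin A4 had 123 and 95.0 on the same probe sets. SPDEF, an ETS transcription factor, had 71.1 with leukotriene B4 and 181 with leukotriene C4, but its unstimulated value was 234 and the lipoxin arrays had 66.6 and 82.8, so leukotriene B4 was 1 of 3 low arrays. ARMC9, a protein of the cilium base, had 145 and 301, with differences between -0.28 and 1.62 on its other 4 probe sets. CEACAM3, SPDEF, HLA-DOA, DPF1 and CHST5 were read from probe sets whose names mark matches to related sequences.

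The backed genes higher with leukotriene B4 were HCRP1, LRRC43 and ZBTB7B. ZBTB7B, a zinc finger factor known for its part in the CD4 T cell lineage, had 501 with leukotriene B4 and 240 with leukotriene C4 (-1.06), with 553 in unstimulated cells and 414 and 337 with lipoxins A4 and B4. The leukotriene C4 array was the lowest, and the second probe set gave -1.42. LRRC43 had 281 and 123 (-1.20) with 366 in unstimulated cells and 181 and 306 for the lipoxins. Its other probe set was above the floor with leukotriene B4 only, at 154. HCRP1 had 222 with leukotriene B4 and between 77.2 and 110 on the other 4 arrays. Its second probe set gave -1.39 as a bound, with 128 for leukotriene B4, 101 in unstimulated cells and leukotriene C4 under the floor. On that probe set leukotriene C4 lay farther from unstimulated cells than leukotriene B4.

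**Figure D3:**
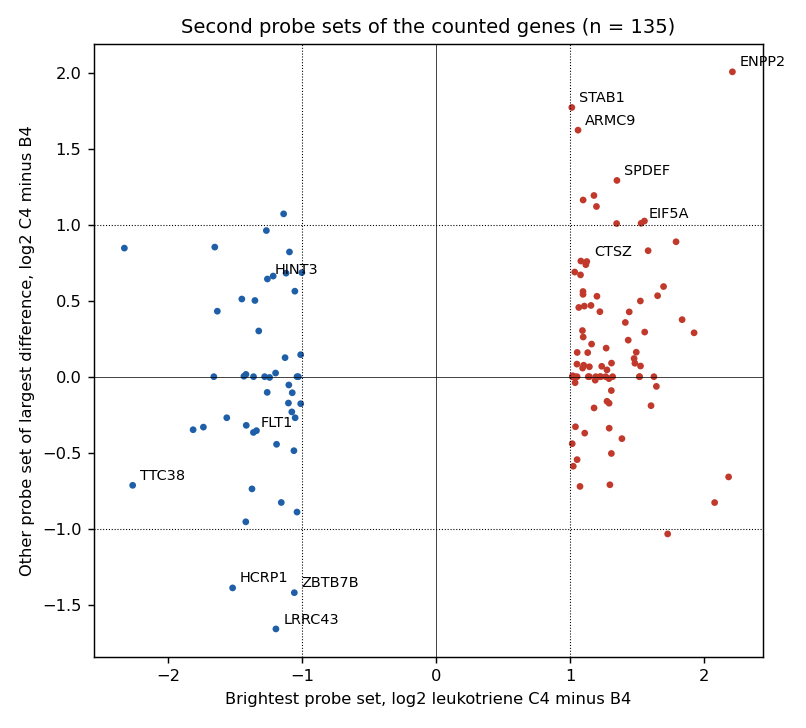
For the 135 counted genes with another measured probe set, the log2 difference on the brightest probe set (horizontal) and on the other probe set of largest difference (vertical), both leukotriene C4 minus leukotriene B4; dotted lines mark 2-fold. Genes in the upper right and lower left corners, among them ENPP2 and LRRC43, are backed, and most points lie between the horizontal dotted lines.

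The unstimulated array was used to place each of the 377 counted genes. In 113 leukotriene C4 was at least 2-fold from unstimulated cells while leukotriene B4 was within 0.5, and in 81 the reverse held. In 51 the leukotrienes lay on opposite sides, each by at least 0.5, and 132 met none of these. Of the genes higher with leukotriene C4, 75 were on the leukotriene C4 side and 53 on the leukotriene B4 side. Of those higher with leukotriene B4, 38 and 28 were. Both differences share the 1 unstimulated array, and over all genes leukotriene C4 was at least 2-fold from it for 444 (2.89%, with 1.21% higher and 1.68% lower) and leukotriene B4 for 378 (2.46%, with 0.722% higher and 1.74% lower).

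The leukotriene C4 array was the single highest of the 5 for 196 of the 241 genes higher with leukotriene C4 (81.3%), and the leukotriene B4 array the single lowest for 111 (46.1%). Over all measured genes leukotriene C4 was the single highest for 32.2% and leukotriene B4 the single lowest for 14.2%. The choice of genes raises both shares, so they are descriptions only.

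The named genes for which leukotriene B4 lay farther from unstimulated cells than leukotriene C4 were mostly dim. UTS2R, the urotensin receptor, had 61.1 with leukotriene B4, 231 with leukotriene C4 and 380 in unstimulated cells, with 354 and 299 for the lipoxins. Its difference was 1.92, with leukotriene B4 the low array and leukotriene C4 in between. ANHX had 72.4 with leukotriene B4, 284 with leukotriene C4 and 213 in unstimulated cells. SLC52A3, a riboflavin transporter, had 57.2, 169 and 131 in the same order. DAGLA, which makes the endocannabinoid 2-arachidonoylglycerol, had 145 with leukotriene B4, 50.7 with leukotriene C4 and was under the floor on the other 3 arrays, a difference of -1.51. The receptor FLT1 of vascular endothelial growth factor had 147 and 57.2 (-1.37) with 54.4 in unstimulated cells, but 0.00, -0.16 and -0.37 on its other probe sets.

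The genes of largest difference on the leukotriene C4 side also included KIF26B and IHO1 among the higher ones. KIF26B, a kinesin-like protein, had 59.0 with leukotriene B4, 204 with leukotriene C4 and 83.1 in unstimulated cells, and its second probe set gave 0.89. IHO1, a protein of meiotic recombination, had 57.2 and 180 and was under the floor in unstimulated cells. On its second probe set (0.53) unstimulated cells were the highest at 121, with 59.6 for leukotriene B4 and 86.1 for leukotriene C4, so that probe set does not place IHO1 on the leukotriene C4 side. Lower on that side were STARD5, a sterol carrier protein (159 and 48.8), LINC00482 (160 and 57.2) and the DNA polymerase POLL (167 and 61.6), with differences of -1.70, -1.48 and -1.43. LINC02450 (74 and 286), CMTM5 (56 and 165), POM121L12 (309 and 97.9) and UCN3, a urocortin peptide (155 and 57.2), had the leukotrienes on opposite sides of unstimulated cells.

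Of genes above the floor on both leukotriene arrays, ERN2 had the largest difference in favour of leukotriene B4 (-2.33). Another of its probe sets gave 0.85. TTC38 came next. Its signals were 287 with leukotriene B4 and 59.7 with leukotriene C4, a difference of -2.27, with 143 in unstimulated cells and 271 and 310 for the lipoxins. Leukotriene C4 was the lowest array, and the other 3 stimulated arrays lay together. A second TTC38 probe set gave -0.71, but there unstimulated cells were the highest at 132.

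**Figure D4:**
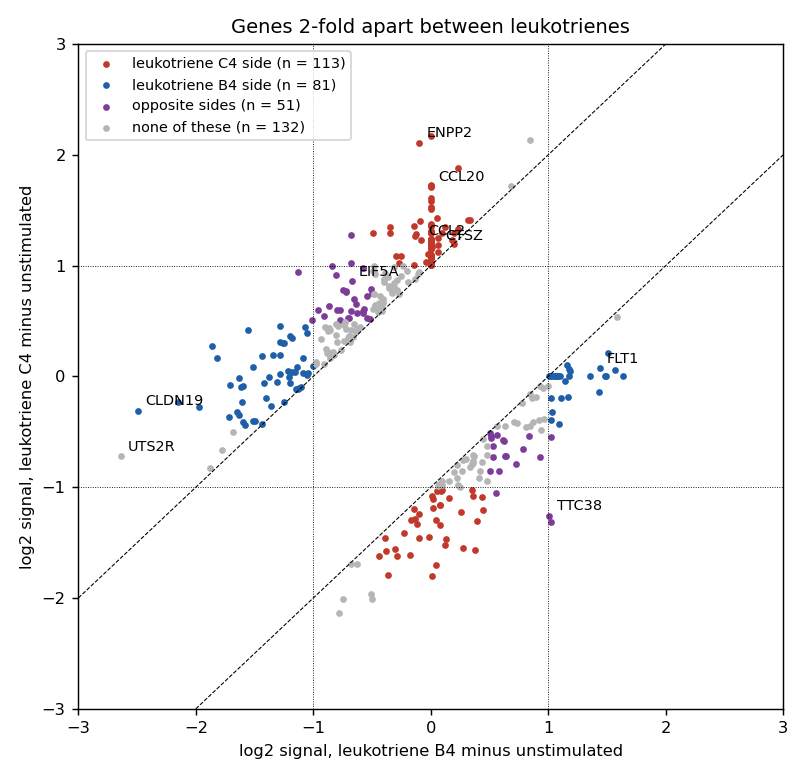
The 377 genes at least 2-fold apart between the leukotrienes, with the log2 difference of leukotriene B4 (horizontal) and of leukotriene C4 (vertical) from unstimulated cells; dashed lines mark 2-fold between the leukotrienes, and the gap between them is set by that choice. The 113 genes on the leukotriene C4 side, with ENPP2, CCL2 and CCL20, spread vertically, and the 81 on the leukotriene B4 side, with CLDN19 and FLT1, spread horizontally.

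The receptors of the compared ligands were alike on both arrays. LTB4R, the high-affinity leukotriene B4 receptor, had 687 with leukotriene B4 and 702 with leukotriene C4, a difference of 0.03. Its other probe sets gave 0.09 and 0.16. On the brightest probe set unstimulated cells had 906, above every stimulated array, with leukotrienes B4 and C4 at -0.40 and -0.37 from them. The other probe sets placed leukotrienes B4 and C4 at -0.18 and -0.09, and at 0.00 and 0.16, from unstimulated cells. CYSLTR1 had 1240 and 1135 (-0.13), and its other bright probe set gave 0.04. CYSLTR2 had 80.9 and 70.1, close to the floor (-0.21). LTB4R2 had no probe set with 1 symbol and could not be read. OXGR1, GPR17 and P2RY12 had 1, 2 and 2 such probe sets, none above the floor on any array. No interval can be given for these differences, and values this close do not show that the compounds act alike on the receptors.

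Of the 13 measured genes of leukotriene synthesis, conversion and export, 0 were 2-fold higher with leukotriene C4 and 1 with leukotriene B4, and the median was 0.09. ALOX5, the 5-lipoxygenase, had 119 on the leukotriene B4 array and 140 on the other, while its partner ALOX5AP had 33323 and 38844. LTA4H, the hydrolase that yields leukotriene B4, had 3772 and 3863. LTC4S, the synthase of leukotriene C4, had 144 with leukotriene B4 and 227 with leukotriene C4 (0.65), with 178 in unstimulated cells and 223 and 231 for the lipoxins, so leukotriene B4 was the lowest. The related synthases MGST2 and MGST3 differed by 0.04 and 0.15. ABCC1, the exporter of leukotriene C4, differed by 0.07, and PTGR1, which inactivates leukotriene B4, by 0.10.

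DPEP2, a dipeptidase that trims leukotriene D4 to leukotriene E4, was the member 2-fold apart. It had 101 with leukotriene B4 and was under the floor with leukotriene C4 and in unstimulated cells, with 65.0 and 62.0 for the lipoxins, so it was at least 2.07-fold higher with leukotriene B4. DPEP3 had 5281 and 5623. GGT1 was under the floor on both leukotriene arrays, CYP4F2 and ALOX12 were at or near it, and the other 5 listed genes were not measured.

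Glutathione enzymes, which bear on the conjugate, were close to each other on the arrays. Of 23 measured genes 0 were higher with leukotriene C4 and 1 with leukotriene B4, with a median of 0.10. The exception, GGT7 of the gamma-glutamyltransferase family, had 148 and 66.3 (-1.16), but its other probe sets gave 0.13 and -0.83. GPX1, GSTP1, GCLC and GCLM differed by 0.26, 0.02, 0.09 and -0.02. None of 12 targets of the antioxidant regulator NRF2 was 2-fold apart, with a median of 0.06. HMOX1, haem oxygenase, came nearest with 108 and 210 (0.96), against 95.4 in unstimulated cells.

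Prostaglandin genes were mixed. PTGES, the inducible prostaglandin E synthase, had 62.1 with leukotriene B4 and 138 with leukotriene C4 (1.16), with 71.4 in unstimulated cells and both lipoxins under the floor, and its second probe set gave 0.47. It was the 1 of 12 measured genes of synthesis and breakdown that was 2-fold apart, with a list median of 0.15. PTGS2, the inducible cyclooxygenase, lay the other way with 172 and 95.5 (-0.85), and -0.25 on another probe set. Of the 13 measured eicosanoid and formyl peptide receptors, only PTGER1, a prostaglandin E2 receptor, was 2-fold apart, at 108 with leukotriene C4 and under the floor with leukotriene B4, at least 2.23-fold. Its other probe sets were under the floor on all arrays. The list median was 0.00, and PTGER4 had 4154 and 3671.

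Of the 14 measured phospholipases on the list, PLB1 had 129 with leukotriene B4 and 314 with leukotriene C4 (1.29), with 71.7 in unstimulated cells and 67.4 and 113 for the lipoxins. It lay between the unstimulated and leukotriene C4 values on the leukotriene B4 array, and it was the only listed member 2-fold apart, with a list median of 0.03. PLA2G4F, a phospholipase outside the list and picked out after its values were seen, had 114 with leukotriene C4 and was under the floor with leukotriene B4, at least 2.34-fold apart. PLA2G4A, the phospholipase that releases arachidonic acid, had 2110 and 2146. KYNU, kynureninase, had 93.3 and 192 (1.04), with 58.1 in unstimulated cells, and another probe set gave -0.33. It was the 1 of 15 measured kynurenine and aryl hydrocarbon receptor genes that was 2-fold apart (median 0.10), and IDO1 differed by -0.35.

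Few members of the other inflammatory lists were 2-fold apart. None of 8 measured pro-inflammatory cytokines was 2-fold apart (median -0.03): IL1B had 1144 and 1116, and TNF had 639 and 443 (-0.53) with 559 in unstimulated cells. Among 16 NF-kappaB subunits and targets (median 0.05), the costimulatory molecule CD80 was 2-fold apart at 54.9 and 111 (1.02). Its unstimulated value was 119, so leukotriene B4 was the lower array. The subunit RELB had 125 and 199 (0.67) with 281 in unstimulated cells. After quantile normalization CD80 lay just under 2-fold. None of 18 anti-inflammatory and feedback genes (median 0.04), 20 immediate early genes (-0.04) or 18 interferon-stimulated genes (-0.08) was 2-fold apart. Among them the ERK phosphatase DUSP6 had 1291 and 846 (-0.61), while its other probe sets gave 0.22 and 0.14, and DUSP2 had 211 and 382 (0.85).

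Among the 26 measured genes listed for G protein, phospholipase C and calcium signalling none was 2-fold apart, and the median was 0.12. The list leaves out the G protein subunits GNB3 and GNAO1, picked out after their values were seen. They had 161 and 139 with leukotriene C4 and were under the floor with leukotriene B4, at least 3.31-fold and 2.86-fold apart, and another GNAO1 probe set gave 0.00. Unstimulated cells had 85.3 for GNB3, with the leukotrienes on opposite sides, and 102 for GNAO1, which was on the leukotriene B4 side. Within the list, ITPKC, a kinase of inositol trisphosphate, differed most, with 77.1 and 144 (0.90) against 48.7, the value of the floor, in unstimulated cells. GNAI2, which couples to LTB4R, had 3454 and 3859, and GNAQ, which couples to CYSLTR1, had 4154 and 4000. Of 9 RGS regulators, which shorten G protein signals, RGS2 differed most, with 164 and 300.3 (0.87), and the median was 0.10.

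Of 18 measured tissue repair and angiogenic genes, FLT1 alone was 2-fold apart and the median was 0.11. The plasminogen activator PLAU had 2076 and 2441, and VEGFA had 1239 and 1141. None of 14 integrins and adhesion receptors (median -0.02) or 16 listed scavenger and cholesterol efflux genes (0.00) was 2-fold apart. That list leaves out STAB1, above, and the endocytic receptor LRP1, which was picked out after its values were seen and had 192 with leukotriene B4 and 71.6 with leukotriene C4 (-1.42; another probe set gave -0.95). APOE had 3382 and 4416 (0.39).

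Housekeeping lists shifted a little and together, on a scale that followed the array. All 13 measured ribosomal protein genes were above 0 (median 0.16), as were all 18 genes of the respiratory chain (0.13) and 16 of 19 glycolysis and hypoxia genes (0.16). Over all genes of mean signal 500 or more, 64.0% were above 0 with a median of 0.06. After quantile normalization the medians of the 3 lists were -0.01, 0.05 and 0.05, and 5 of the 13 ribosomal protein genes were above 0. The 15 genes for cholesterol and fatty acid production had 0.14, the 16 of the ATF4 response 0.07 and the 23 of the cell cycle -0.02, with no member 2-fold apart in these 6 lists. In all, 17 of the 28 lists held no gene 2-fold apart.

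**Figure D5:**
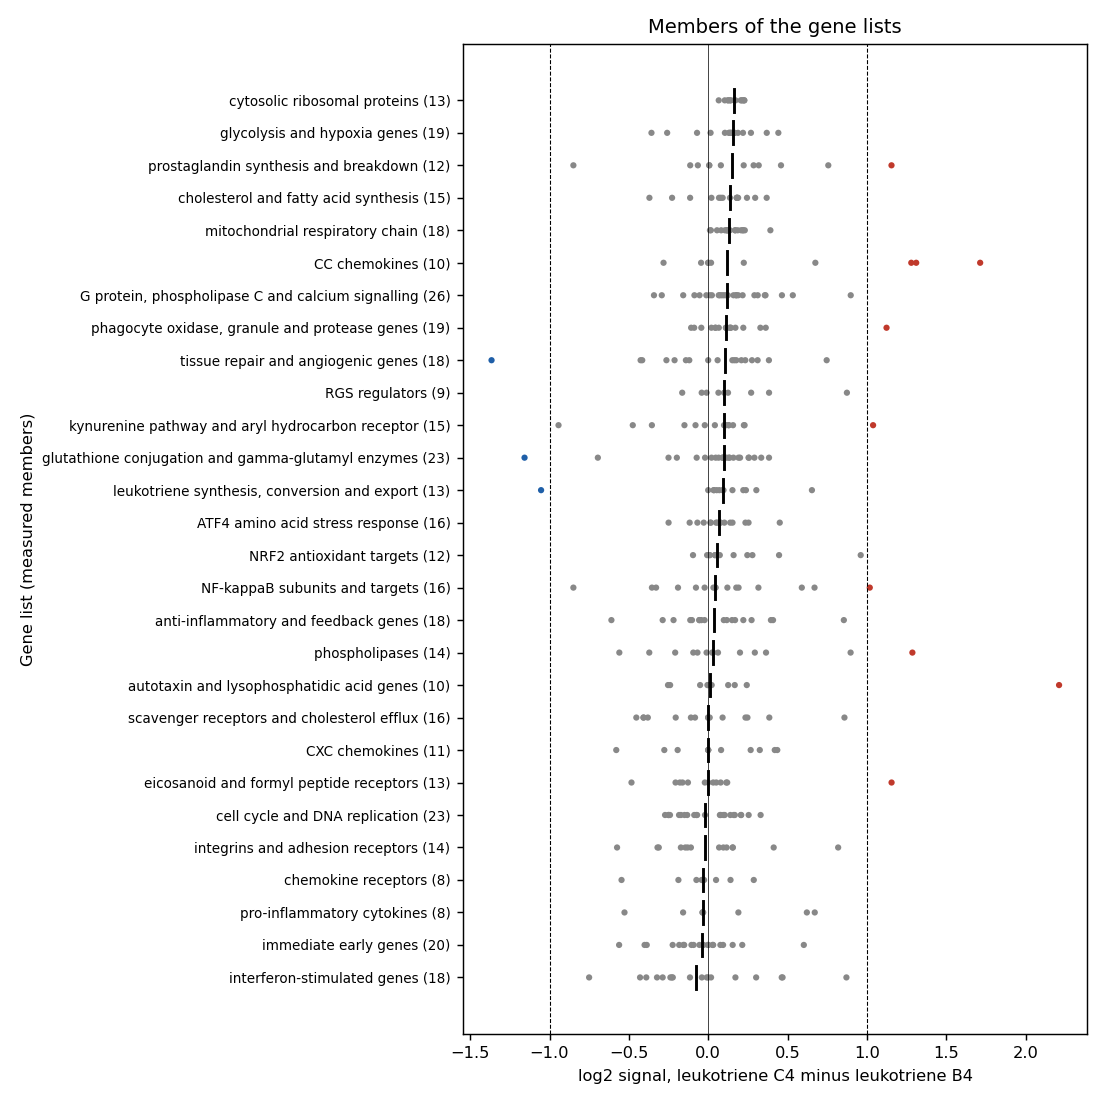
Each point is a measured member of 1 of the 28 gene lists, placed by its log2 difference, leukotriene C4 minus leukotriene B4, with the list's median as a black bar and 2-fold as dashed lines. Red points, among them 3 CC chemokines and ENPP2, are at least 2-fold higher with leukotriene C4, blue points at least 2-fold higher with leukotriene B4, and medians lie between -0.08 and 0.16.

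The labelled cell type was checked against its markers. Of 15 monocyte and macrophage markers 10 were measured, among them LYZ (47389 and 48899 on the leukotriene B4 and C4 arrays), SPI1 (4630 and 5683) and CD14 (188 and 319). CD68, FCGR1A and CD33 were among those not measured. The median difference of the 10 was 0.19, and none was 2-fold apart. Summed over all their probe sets these markers gave 111861 and 115818. The corresponding sums were 607 and 453 for T cell markers, 540 and 661 for B cell, 562 and 702 for erythroid and megakaryocyte, 908 and 727 for fibroblast and endothelial, 1167 and 1188 for liver and epithelial, and 5268 and 5481 for muscle and nerve markers. Their medians were 0.00, 0.00, 0.19, -0.29, 0.07 and 0.13 over 5, 6, 5, 6, 6 and 5 measured genes, with none 2-fold apart. The 3' to 5' ratios of GAPDH were 0.996 and 1.06 and those of beta-actin 1.10 and 1.13. The 18 probe sets of spiked-in bacterial and phage transcripts were 0.989 to 1.25 times as bright on the leukotriene C4 array. The middle 18S ribosomal RNA probe set was 3.36 times as bright there, with 913 and 3069, and the 5' probe set 3.83 times. The much brighter 3' probe set of 18S was 1.15 times as bright, with 37847 and 43345. The part of ribosomal RNA in the differences above was not tested.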

How the data were processed

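The data are 5 expression arrays, 1 per condition, grouped by sample title. The authors deposited intensity signals on a linear scale for 54675 probe sets; GCOS 1.4 was used, per the submitters' processing notes, and no source used here names the signal algorithm. The mean signal without the highest and lowest 2% was 500.1 on every array, so arrays had been scaled before deposit. Signals were converted to log2 and scaled to equal medians among the brighter 50% of probe sets (factors 0.978 to 1.03), which keeps any trend with brightness. Genes were named from the platform annotation and current RefSeq identifiers (41043 of 41097 probe sets with 1 symbol matched); probe sets with several symbols (1801) or not listed (11777) were left out. A probe set counted as measured if 1 array or more exceeded the floor.

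Genes named are, each way, up to 8 of largest difference above the floor on both arrays and without an opposite probe set, up to 6 such of mean signal 500 or more, up to 4 bounds backed by another probe set, no more than 4 members per list that were 2-fold apart, and the leukotriene synthesis genes and receptors; others were chosen after their values were seen. The comparison, lists and rules were chosen with earlier results of these data known. No test was run, since 1 array per condition leaves no error; the number of arrays limits the precision. Alternatives were other floors, normalizations, probe set rules and thresholds. The counting was tried on simulated data, with differences set only in genes of mean signal above 200. Most counted genes lie under that signal, so the trial does not show how well differences among them are found. Python 3.11.15, pandas 2.3.3 and statsmodels 0.14.6 were used.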

Additional observations from a re-analysis of the deposited data

Results flagged for a closer look

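The following ribosomal RNA control probe sets, left out of every comparison, were brighter on all 4 stimulated arrays than on the unstimulated array. For 18S ribosomal RNA the middle probe set was 16.5-fold over unstimulated cells with leukotriene C4 and 4.9-fold with leukotriene B4, and the 5' probe set 14-fold and 3.64-fold. For 28S ribosomal RNA the 5' probe set was 4.53-fold and 3.12-fold, and the middle one 2.87-fold and 2.17-fold. The lipoxin arrays were raised too. The middle 18S probe set had a signal of 186 in unstimulated cells, 913 with leukotriene B4, 3069 with leukotriene C4, 365 with lipoxin A4 and 1056 with lipoxin B4. The 5' probe set of 28S had 647, 2019, 2932, 1275 and 2233 in the same order, so lipoxin B4 lay above leukotriene B4 on both and leukotriene C4 was the highest. The 3' probe sets differed less: that of 18S was 3.41-fold over unstimulated cells with leukotriene C4 and 2.98-fold with leukotriene B4. That of 28S, dim at 64.2 in unstimulated cells, was 1.23-fold and 1.24-fold. Unlike the probe sets above, it was lower with lipoxin B4, at 47.7.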

How the results depend on the processing

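With a floor at the 30th percentile (signal 17.4), 1434 genes were higher with leukotriene C4 and 1013 with leukotriene B4, 112 and 59 of them backed by a second probe set, with 806 on the leukotriene C4 side, 729 on the leukotriene B4 side and 352 on opposite sides. With a floor at the 70th percentile (244) the same counts were 5, 6, 1, 0, 5, 0 and 1, and with a floor from other cell types' markers (126) they were 18, 15, 2, 0, 10, 2 and 1, since dim values are then equal by construction. At 1.5-fold they were 972 and 583 genes, 48 and 33 backed, 42 and 26 bright and 170 on the leukotriene C4 side; at 3-fold 29 and 13 genes, 1 and 0 backed, 1 and 0 bright, and 19, 13 and 9 by side. Without probe sets that may match related transcripts, 1 bright gene was higher each way. In that setting 4 genes higher with leukotriene C4 were backed, and GGT7 reversed to 0.13. Of the 31 named 2-fold genes, 8 then have no value: CCL2, CCL7, CTSZ, EIF5A, ZC3H12D, PTGES, STARD5 and POLL. With the mean of all probe sets, 1 bright gene was higher with leukotriene B4 and 49 genes were on the leukotriene B4 side; backing could not be counted. As deposited, 6 genes higher with leukotriene C4 were backed; the cause was not tested.

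Quantile normalization, loess and the deposited values kept 29 of 31 named 2-fold genes at 2-fold, all but STAB1 and CD80, and kept 221, 214 and 211 of the 241 genes higher with leukotriene C4. The share of counted genes higher with leukotriene C4 was 63.9%, and 61.4%, 57.7% and 59.4% in these settings. The mean of all probe sets kept 23 of the 31, with CTSZ (0.94), STAB1 (0.80), POM121L12 (-0.83), CD80 (0.51), PTGES (0.81), GGT7 (-0.62), KYNU (0.35) and FLT1 (-0.47) under 2-fold. ENPP2 kept between 2.11 and 2.21 in all settings run. With the floor from markers 17 of 27 named genes that kept a value, CCL20 (0.35) among them, fell under 2-fold. No paired analysis was possible because each group holds 1 array.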
